A study of Mus musculus with 6 samples.

Results

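The genes described here are 8 transporters that carry drugs, conjugates and lipids out of mammalian cells: Abcb1a, Abcb1b, Abcb4, Abcc1, Abcc3, Abcc4, Abcc5 and Abcg2. They were taken by gene symbol from a table of 16775 mouse genes, and all 8 had a row and passed the filter on low counts that left 12619 tested genes. The libraries are RNA-seq of osteoclasts, the multinucleated cells that resorb bone, grown from the marrow macrophages of wild-type (WT) mice. Both groups received M-CSF at 30 ng/ml and RANKL at 50 ng/ml, the cytokines that drive macrophages into osteoclasts, in medium with 10% serum. The treated group also received verapamil, at a dose and time that the labels do not give. The labels name no vehicle, strain or age, and put the cells at day 5. The labels describe 6 libraries with 3 in each group. Because control replicate 2 was not analysed here, replicates 1 and 3 stand for the controls against all 3 treated libraries.

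ATP-binding cassette (ABC) transporters use the energy of ATP to move cargo across membranes. P-glycoprotein, which mice encode in the neighbouring genes Abcb1a and Abcb1b, pumps many unrelated drugs out of cells and is the classic cause of multidrug resistance in tumours. Abcb4, the next gene along the chromosome, is a close relative that moves phosphatidylcholine across the membrane, best known in the bile canaliculus. The Abcc genes encode multidrug resistance-associated proteins, which export organic anions such as glutathione conjugates, leukotriene C4 and cyclic nucleotides, and Abcg2 encodes the breast cancer resistance protein. Verapamil blocks L-type calcium channels and is also a widely used inhibitor of P-glycoprotein transport. The comparison shows what happens to the transcripts of these pumps in osteoclast cultures that received it.

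On the mouse genome build GRCm38 the 3 Abcb genes lie one after another on the forward strand of chromosome 5. Abcb1a spans chr5:8567091-8748575, Abcb1b spans chr5:8798147-8866314, and Abcb4 spans chr5:8893614-8959226. Abcc1 lies at chr16:14361453-14474878 and Abcc5 at chr16:20331303-20426428, Abcc3 at chr11:94343295-94393017, Abcc4 at chr14:118482692-118707856 and Abcg2 at chr6:58584491-58692451. How alike these neighbours are bears on the counts of Abcb1a and Abcb1b and, less, on those of Abcb4. The coding sequences of Abcb1a and Abcb1b were identical at 88.1% of aligned bases, against 76% for Abcb1a and Abcb4 and 74.6% for Abcb1b and Abcb4. The longest stretch that Abcb1a and Abcb1b share without a difference was 338 coding bases in exons 13 and 14, and Abcb4 differed from it at 41 of those bases. The last 60 bases of that stretch and the next 60 are shown to let a reader see how little tells the genes apart. Each is 5′ to 3′ from the GENCODE M21 transcripts, with capitals for bases that differ from Abcb1a, and each genome span includes the intron between exons 14 and 15. Abcb1a is at chr5:8702885-8713227, Abcb1b at chr5:8825205-8825591 and Abcb4 at chr5:8928499-8930782.
Abcb1a: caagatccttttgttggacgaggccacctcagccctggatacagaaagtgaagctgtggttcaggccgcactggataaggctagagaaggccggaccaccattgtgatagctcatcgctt
Abcb1b: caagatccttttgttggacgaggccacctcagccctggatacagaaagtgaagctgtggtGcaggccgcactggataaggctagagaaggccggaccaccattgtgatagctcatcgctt
Abcb4: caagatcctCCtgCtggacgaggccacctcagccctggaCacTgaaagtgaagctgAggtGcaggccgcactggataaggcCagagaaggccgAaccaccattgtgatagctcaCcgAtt
Over these 120 bases Abcb1b had 1 difference from Abcb1a and Abcb4 had 11.

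The promoter windows of the P-glycoprotein genes, the 250 bases before the RefSeq start, were unlike each other. Each window ends where the gene's span begins, and whether transcripts in these cells start there was not tested. Both are printed from the RefSeq table of GRCm38.p6, 5′ to 3′ on the forward strand, with capitals for matches to the motifs searched. Abcb1a covers chr5:8566841-8567090 and Abcb1b covers chr5:8797897-8798146.
Abcb1a: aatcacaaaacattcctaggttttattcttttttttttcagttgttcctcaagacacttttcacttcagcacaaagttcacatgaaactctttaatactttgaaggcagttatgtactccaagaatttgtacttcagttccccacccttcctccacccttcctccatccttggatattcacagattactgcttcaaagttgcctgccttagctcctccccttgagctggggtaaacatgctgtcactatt
Abcb1b: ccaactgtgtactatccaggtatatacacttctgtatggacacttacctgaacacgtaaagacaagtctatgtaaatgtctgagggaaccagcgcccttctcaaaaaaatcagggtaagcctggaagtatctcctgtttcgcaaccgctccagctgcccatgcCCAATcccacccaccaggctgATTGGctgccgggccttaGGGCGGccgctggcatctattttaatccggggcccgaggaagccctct
The Abcb1a window was 40.4% G and C, held 0 CpG dinucleotides and matched 0 of the 6 motifs searched. The Abcb1b window was 52.8% G and C, held 9 CpG dinucleotides, and had 2 CCAAT matches, 1 on each strand, and 1 match to the GC box GGGCGG. The Abcb4 window, chr5:8893471-8893720, was 61.6% G and C with 18 CpG dinucleotides. It held 1 match to the CCAAT box, 1 to the GC box and 1 to GCGTG, the core that the aryl hydrocarbon receptor recognises. The start site used for this window lies inside the Abcb4 span given above, which begins at chr5:8893614. The GC box and GCGTG matches, 46 and 6 bases before the window's start site, therefore lie within that span. Both strands were searched, also for the TATA box TATAAA, for the E-box CACGTG and for the antioxidant response core TGACNNNGC, and no match overlapped another in these 3 windows. Of 32851 promoters of the same length, 33.8% held CCAAT, 32.7% GGGCGG, 28.2% GCGTG, 12.4% TATAAA, 6.02% CACGTG and 10.2% TGACNNNGC. A match is a description of letters and not of a bound site.

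Among the 8 transporters 1 gene rose with verapamil (Abcb1a, 2.40-fold), 1 fell (Abcb4, 2.22-fold), and 6 did not pass the test. The background is high: 25.4% of all tested genes were called at an adjusted p under 0.05 by edgeR's quasi-likelihood test with Benjamini-Hochberg adjustment, 9.99% as higher and 15.4% as lower. The count of 2 in 8 is therefore near the share for all genes. In 4 of the 8 genes the groups did not overlap, 2 with verapamil above control and 2 below, where the shares of all tested genes were 56.7% in either direction, 27.7% above and 29% below. The median log2 fold change of the 8 genes was -0.07, and that of all tested genes was -0.01. Levels are given as CPM, estimated counts relative to the total of the library's tested genes after scaling by edgeR's trimmed mean of M values (TMM), and a positive log2 fold change means higher with verapamil. The labels do not state that replicates are separate animals or cultures. The p-values then measure no more than the spread between these samples, and that spread may be technical. In bulk libraries fewer cells of a type and less RNA per cell cannot be told apart.

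**Figure D1:**
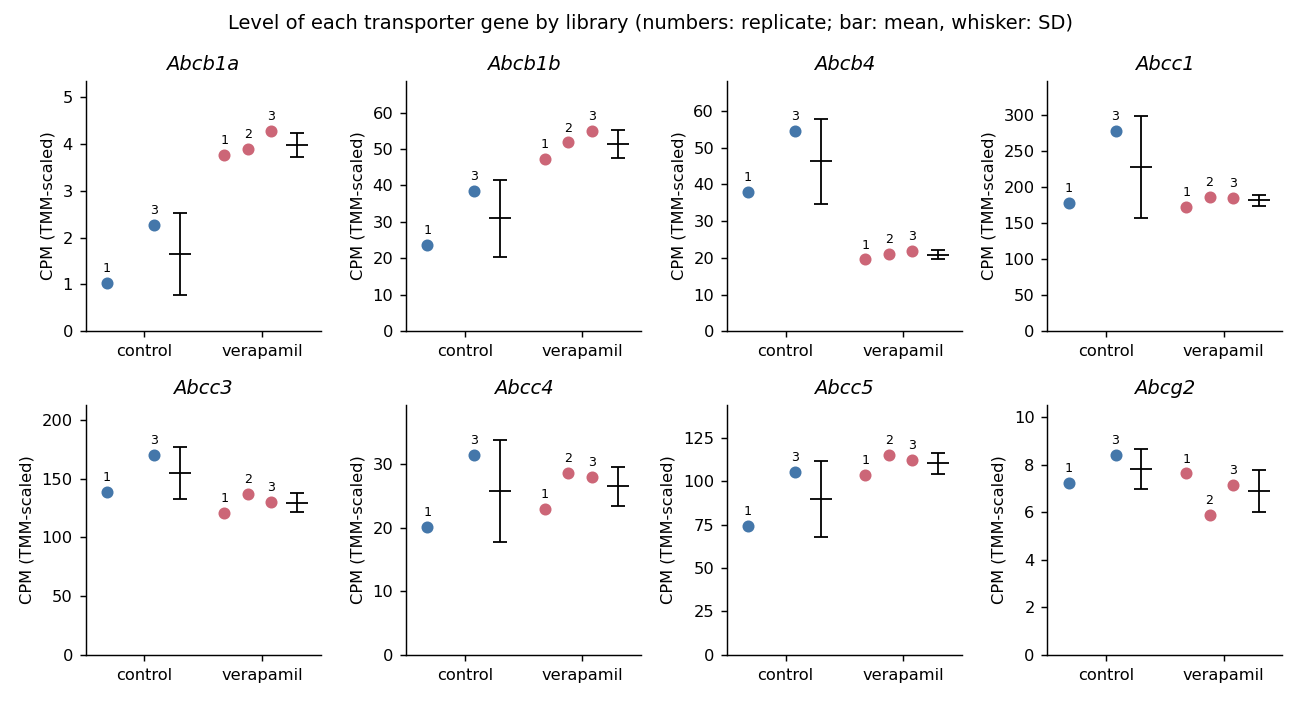
Level of each of the 8 transporter genes in the 5 libraries, in TMM-scaled CPM on linear axes that start at 0 and differ between panels. Points are libraries labelled with their replicate number, and the bar and whiskers beside them are the mean and SD of 2 control and 3 verapamil libraries. Abcb1a and Abcb1b lie higher in every verapamil library than in either control, Abcb4 lies lower, and all 8 genes are higher in control replicate 3 than in control replicate 1.

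Abcb1a, the P-glycoprotein gene best known from the blood-brain barrier and gut, was the least abundant of the 8 genes, also per length. Its level was 1.04 and 2.27 CPM in control replicates 1 and 3, and 3.77, 3.89 and 4.28 CPM in verapamil replicates 1, 2 and 3. All 3 verapamil libraries exceeded both controls, while the controls differed from each other by 2.19-fold. Mean levels were 1.66 ± 0.873 CPM without verapamil (SD, n = 2) and 3.98 ± 0.265 CPM with it (SD, n = 3). The log2 fold change was 1.26 (SE 0.328), with an adjusted p of 0.0363 by edgeR's quasi-likelihood test with Benjamini-Hochberg adjustment. These levels rest on few reads, 23.1 and 53.2 estimated counts in the controls and 75.3 to 86.8 with verapamil. The call was lost without any 1 of the verapamil libraries (log2 fold change 1.21 to 1.30, adjusted p = 0.104 to 0.123 in edgeR). The size of the rise moved with the control, to 0.82 without control replicate 1 and 1.94 without control replicate 3. A lone control has no spread of its own, so no call is given for these fits.

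Abcb1b, the other P-glycoprotein gene, had most of the counts of the pair. Its level was 23.6 and 38.4 CPM in control replicates 1 and 3. With verapamil it was 47.4, 51.8 and 54.9 CPM in replicates 1, 2 and 3. Every verapamil library again lay above both controls, and the spread within the controls was wider than that within the verapamil group. The means were 31.0 ± 10.5 CPM (SD, n = 2) and 51.4 ± 3.79 CPM (SD, n = 3), with a log2 fold change of 0.73 (SE 0.215). This difference did not pass the test over all genes (adjusted p = 0.0528 in edgeR). It did pass with relative log expression factors (adjusted p = 0.0476 in edgeR) and with DESeq2 (adjusted p = 0.00691). The replicate block, which compares fewer libraries, and removal of the length trend, both given below, also made it pass. In edgeR it did not pass with upper quartile factors (adjusted p = 0.0562), no filter (0.05001) or the stricter filter (0.0585). With 1 verapamil library left out the adjusted p in edgeR reached 0.165. Dropping control replicate 1 gave Abcb1b a log2 fold change of 0.42, and dropping control replicate 3 gave 1.13. The size of its rise thus moved by over 1.5 times with the choice of control. Both fits rest on a lone control, so they are given no call.

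The ratio of Abcb1b to Abcb1a in CPM was 22.7 and 16.9 in the controls and 12.6, 13.3 and 12.8 with verapamil. The Abcb1a share of the pair was thus larger in each verapamil library, but the count of Abcb1a can hold reads from its sister gene. Of all 50-base windows of the Abcb1b transcript, 18% also occur in the Abcb1a transcript, and of 75-base windows 12.4%. The 50-base share amounts to 94.6 to 201 of the estimated Abcb1b counts per library, which exceeds the whole Abcb1a count of 23.1 to 86.8. How the authors' counting divided such reads is not given in the sources used here, so the separate values of Abcb1a and Abcb1b are uncertain. Abcb4 shares less with either, at 3.15% of its 50-base windows with Abcb1a and 1.64% with Abcb1b. The 5 other genes shared 0 such windows with any of the 8. Exons of Abcb1a also overlap 553 bases of Gm42686 on the opposite strand, 10.1% of its exon bases, and exons of Abcb1b overlap the antisense gene Gm5106 at 1.79%. Whether the counting used strand is not stated.

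Counting Abcb1a and Abcb1b as 1 gene avoids dividing the reads they share. Their summed level was 24.6 and 40.7 CPM in control replicates 1 and 3, and 51.2, 55.7 and 59.2 CPM in verapamil replicates 1, 2 and 3. P-glycoprotein transcript was thus higher in each treated library than in either control. Means of the sum were 32.6 ± 11.4 CPM in the controls (SD, n = 2) and 55.4 ± 4.03 CPM with verapamil (SD, n = 3). The log2 fold change of the sum was 0.76 (SE 0.219), with an adjusted p of 0.0494 by edgeR's quasi-likelihood test, just inside the threshold of 0.05. Summing the pair was chosen after seeing the data.

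Abcb4, the phosphatidylcholine transporter, moved the other way. Its level was 38.0 and 54.5 CPM in control replicates 1 and 3. It was 19.6, 21.2 and 21.9 CPM in verapamil replicates 1, 2 and 3, so even the lower control stood well above the highest treated library. The controls averaged 46.3 ± 11.7 CPM (SD, n = 2) and the treated libraries 20.9 ± 1.19 CPM (SD, n = 3). The log2 fold change was -1.15 (SE 0.17), with an adjusted p of 0.00555 by edgeR's quasi-likelihood test with Benjamini-Hochberg adjustment. Abcb4 was called lower with any 1 verapamil library left out and under every other scaling, filter and model run here. Its log2 fold changes, also without 1 control, ran from -1.38 to -0.86.

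Set against the summed P-glycoprotein genes, Abcb4 had the higher CPM in the controls and the lower CPM with verapamil. The ratio of Abcb4 to Abcb1a plus Abcb1b in CPM was 1.55 and 1.34 in control replicates 1 and 3. It was 0.382, 0.380 and 0.370 in verapamil replicates 1, 2 and 3. The controls, which differed by over 1.4 times in each gene, were close in this ratio, whose mean was 1.44 ± 0.146 (SD, n = 2) against 0.377 ± 0.00679 (SD, n = 3). This ratio was chosen after seeing the data and was given no test.

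The opposite changes lay side by side on chromosome 5. Of the 9 other tested genes within 500000 bases of the cluster, 1 fell and 8 were not called. Most tested genes elsewhere were not called either, as 25.4% of all tested genes were called. Adam22, a membrane protein of the ADAM family, fell, with a log2 fold change of -1.06 (SE 0.236) and an adjusted p of 0.0217 by edgeR's quasi-likelihood test, and this call was lost without any 1 of the verapamil libraries. Rundc3b, the nearest tested gene before Abcb1a and in part overlapping its span, had a log2 fold change of 0.47 (SE 0.543) on 5 to 17 counts per library. Crot, the nearest after Abcb4 and a peroxisomal carnitine acyltransferase, had 0.03 (SE 0.146).

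**Figure D2:**
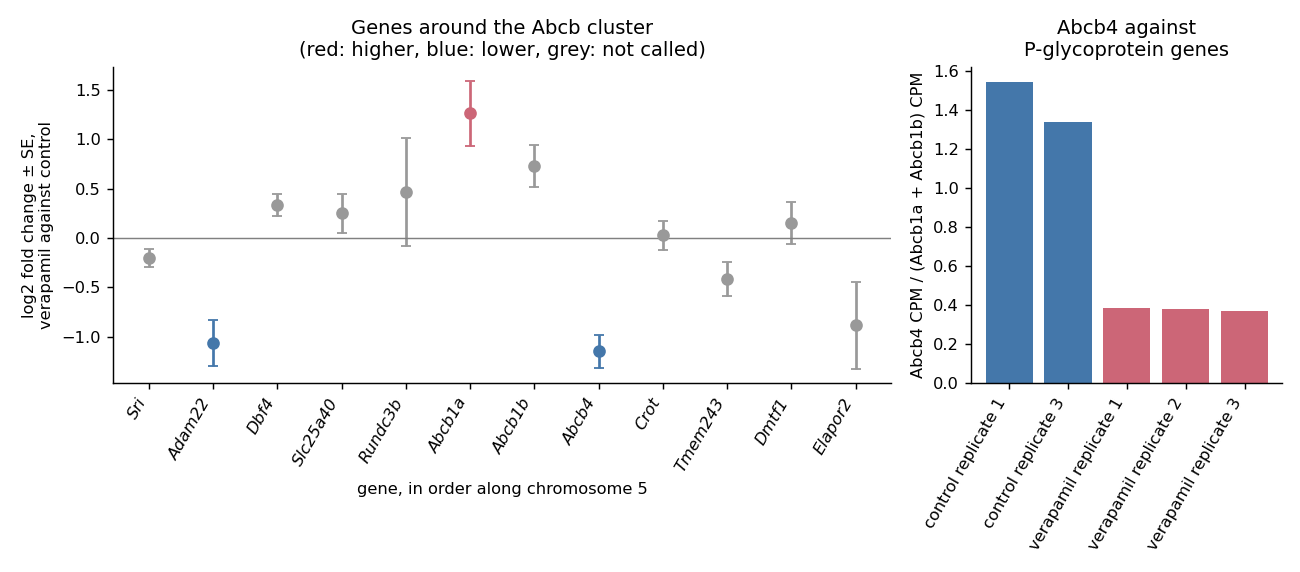
Left, log2 fold change with verapamil (points) and its SE (whiskers) of the 12 tested genes within 500000 bases of the Abcb cluster, in their order along chromosome 5, with genes called higher in red, lower in blue and others in grey. Right, the ratio of Abcb4 to summed Abcb1a and Abcb1b in CPM in each library, which is 1.34 or more in the controls and 0.382 or less with verapamil.

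The 4 multidrug resistance-associated protein genes did not pass the test in either direction. Abcc1, the broad exporter of glutathione conjugates and of leukotriene C4, was at 177 and 277 CPM in control replicates 1 and 3 and at 172, 187 and 185 CPM with verapamil. The lower control lay within the range of the treated libraries and the higher control far above it. The means were 227 ± 70.6 CPM (SD, n = 2) and 181 ± 7.88 CPM (SD, n = 3), with a log2 fold change of -0.33 (SE 0.188, adjusted p = 0.238 in edgeR). Leaving out control replicate 1 gave -0.61, whereas leaving out control replicate 3 gave 0.031, so its direction turned with the choice of control.

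Abcc3, which exports glucuronides and bile salts, was at 139 and 170 CPM in control replicates 1 and 3. With verapamil it was at 121, 137 and 131 CPM. The treated libraries all lay below the controls, though verapamil replicate 2 nearly met control replicate 1. Its log2 fold change was -0.26 (SE 0.123, adjusted p = 0.172 in edgeR), and it was called lower under upper quartile factors (-0.37, adjusted p = 0.0447 in edgeR). Removing each library's trend with transcript length also made it pass (-0.40, adjusted p = 0.00245 in edgeR). Leaving out control replicate 1 gave -0.39.

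Abcc4 and Abcc5 both export cyclic nucleotides, and Abcc4 also exports prostaglandins. Abcc4 was at 20.2 and 31.5 CPM in control replicates 1 and 3 and at 22.9, 28.6 and 28.0 CPM with verapamil. The treated libraries all fell between the controls (log2 fold change 0.04, SE 0.212, adjusted p = 0.908 in edgeR), and the sign turned under upper quartile factors (-0.073), without control replicate 1 (-0.24) and after removal of the length trend (-0.12). It also turned, at values near 0, without verapamil replicate 2 or 3. Abcc5 was at 74.3 and 105 CPM in the controls and at 104, 115 and 112 CPM with verapamil. Only control replicate 1 lay apart from the treated libraries, for a log2 fold change of 0.30 (SE 0.162, adjusted p = 0.218 in edgeR).

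Abcg2, which exports urate, porphyrins and sulfate conjugates, was at 7.22 and 8.41 CPM in control replicates 1 and 3 and at 7.62, 5.89 and 7.15 CPM with verapamil. The groups overlapped, for a log2 fold change of -0.18 (SE 0.168, adjusted p = 0.442 in edgeR). It was not called under any of the other settings run.

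Between genes, levels can be compared only per length, here as CPM per kilobase of the longest coding transcript. In the controls Abcc1 came first at 33.5 ± 10.4 (SD, n = 2), followed by Abcc3 at 30.9 ± 4.44, Abcc5 at 15.4 ± 3.77 and Abcb4 at 11.3 ± 2.86 CPM per kilobase. Abcb1b was at 7.20 ± 2.44, Abcc4 at 4.52 ± 1.40, Abcg2 at 1.37 ± 0.147 and Abcb1a at 0.331 ± 0.175 CPM per kilobase. The ranges of the neighbours Abcc1 and Abcc3, Abcc5 and Abcb4, and Abcb1b and Abcc4 overlapped over the control libraries. Within each control library Abcc5 stood above Abcb4 and Abcb1b above Abcc4, while Abcc1 and Abcc3 changed places. The order between genes was not tested. With verapamil the order was the same except that Abcb1b, at 11.9 ± 0.879 (SD, n = 3), stood above Abcb4, at 5.12 ± 0.292 CPM per kilobase. The other levels with verapamil were 26.7 ± 1.16 for Abcc1, 25.9 ± 1.64 for Abcc3, 19.0 ± 1.04 for Abcc5, 4.64 ± 0.545 for Abcc4, 1.20 ± 0.157 for Abcg2 and 0.796 ± 0.0531 CPM per kilobase for Abcb1a. In that group the ranges of Abcc1 and Abcc3 overlapped, as did those of Abcb4 and Abcc4, though the first of each pair was higher within every library. The cultures thus held mainly transcripts of the Abcc exporters, with Abcb1a at the bottom of the order in both groups.

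Library depth was even, at 20202340 to 21494523 estimated counts, but the controls differed from each other in a way that touches all 8 genes. Control replicate 3 was above control replicate 1 in 8 of 8 transporters, by 1.16-fold to 2.19-fold, with a median log2 ratio of 0.58 against 0.08 for all tested genes. The 3 verapamil libraries differed less, with a ratio of highest to lowest of 1.08 to 1.29 for each gene. The difference between the controls went with transcript length. Over 4 equal groups of genes by length its median was -0.39, -0.02, 0.20 and 0.49 on the log2 scale from the shortest to the longest. Of the genes in the longest group, with 4686 bases or more, 89.7% were higher in control replicate 3, and 6 of the 8 transporters belong to that group and 2 to the next. The log2 fold change with verapamil also moved with length, with medians of -0.23, -0.03, 0.08 and 0.20. The transporters' own transcripts were 4079 to 6792 bases long, so both trends touch them. After removal of each library's length trend Abcb1a kept its call (1.14, adjusted p = 0.0123 in edgeR), Abcb1b passed (0.63, adjusted p = 0.0149) and Abcb4 kept its call (-1.24, adjusted p = 0.000314). Abcc1 then passed as lower too (-0.51, adjusted p = 0.00216), and 5 of 8 genes were called. Calls rose over all genes as well, to 4933 of 12619 tested genes from 3200 with TMM alone.

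**Figure D3:**
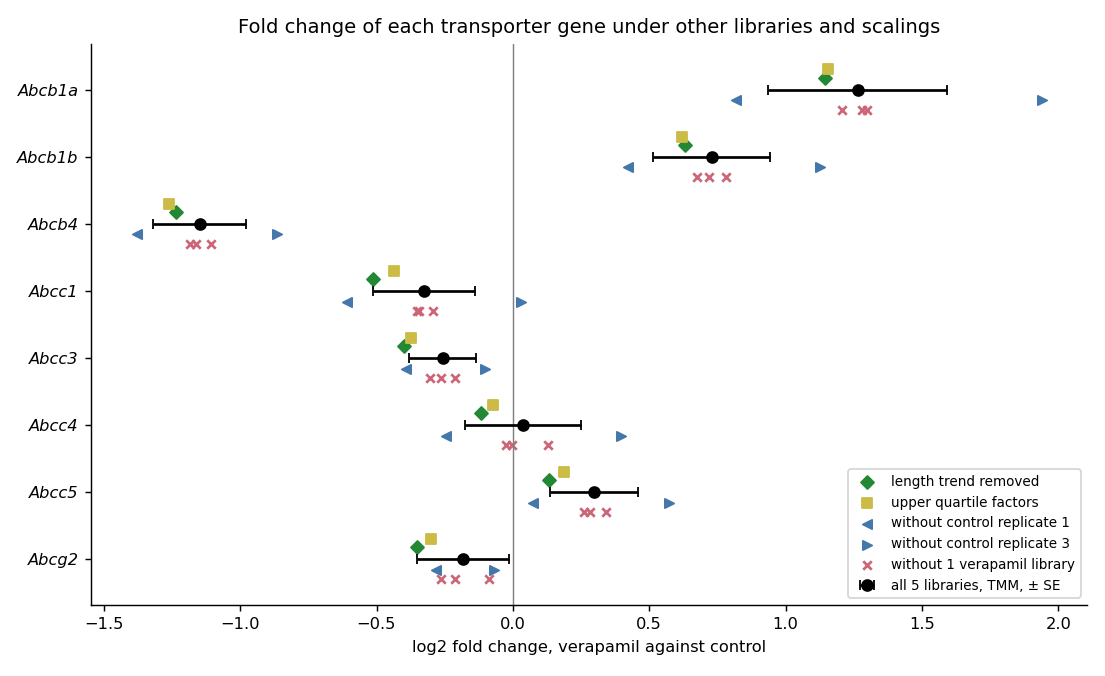
Log2 fold change with verapamil of the 8 transporter genes. Black points and whiskers are the value with all 5 libraries and TMM and its SE, and coloured marks are the values without 1 library, with upper quartile factors or with the length trend of each library removed. Abcb1a and Abcb1b stay above 0 and Abcb4 stays below 0 in all of them, whereas Abcc1 and Abcc4 have marks on both sides of 0.

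The table held 30 other genes of the ABC subfamilies A, B, C, D and G, of which 20 were tested. Of these 2 rose and 2 fell, with a median log2 fold change of 0.06. The shares over all tested genes were 9.99% higher and 15.4% lower. Abcb10, a mitochondrial inner membrane transporter of red cell precursors and other cells, rose, with a log2 fold change of 0.59 (SE 0.116) and an adjusted p of 0.0145 by edgeR's quasi-likelihood test. Abcg1, which passes cholesterol to HDL, had a log2 fold change of 0.36 (SE 0.0952) at an adjusted p of 0.0368. Abcg3 had -1.20 (SE 0.166) at an adjusted p of 0.0043. Abca9 had -0.97 (SE 0.245) at an adjusted p of 0.0327. The call of Abcg1 was lost under upper quartile factors (0.24, adjusted p = 0.137) and without the length trend (0.17), and those of Abcg1, Abcb10 and Abca9 without any 1 of the verapamil libraries. Abcc2, the canalicular export pump, was among the 10 genes below the filter.

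**Figure D4:**
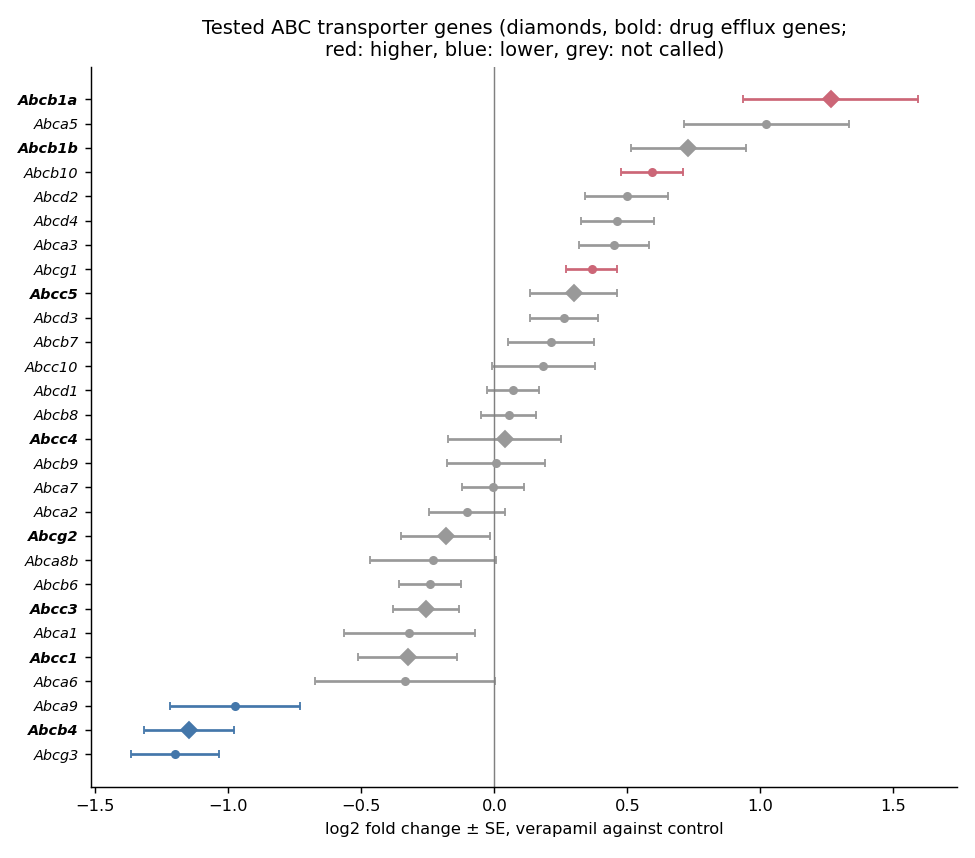
Log2 fold change with verapamil (points) and its SE (whiskers) of the 28 tested ABC transporter genes, ordered by value, with the 8 drug efflux genes as diamonds and bold names. Red genes were called higher, blue genes lower and grey genes not called, and Abcb1a and Abcb4 lie near opposite ends of the order.

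Genes known to control efflux pumps were counted as a list, of which 12 were tested, 3 rose and 2 fell (median log2 fold change 0.16). Beside this and each list below stand the shares of all tested genes, 9.99% higher and 15.4% lower. Ahr, the aryl hydrocarbon receptor that senses planar pollutants, averaged 14.2 ± 3.38 CPM in the controls (SD, n = 2) and 4.11 ± 0.762 CPM with verapamil (SD, n = 3), a log2 fold change of -1.78 (SE 0.217, adjusted p = 0.00289 in edgeR). Its repressor Ahrr fell by 2.22 on the log2 scale (SE 0.306) at an adjusted p of 0.0043 in edgeR. Here and below, sizes given as a rise or fall by a value are log2 units. Nfe2l2, the activator of antioxidant genes, rose by 0.51 (SE 0.0991) at an adjusted p of 0.0145. Rxra, the partner of nuclear receptors, rose by 0.50 (SE 0.0969), and Ybx1, a protein that binds nucleic acids, also rose by 0.50 (SE 0.101), both named after their values were seen. The nuclear receptors of drug sensing in liver, Nr1i2 and Nr1i3, were not among the tested genes. The calls of Nfe2l2, Rxra and Ybx1 were lost without any 1 of the verapamil libraries, and those of Ahr and Ahrr were not. Ybx1 also lost its call under upper quartile factors (adjusted p = 0.0693 in edgeR).

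The uptake side was counted as 17 tested carriers of drugs, nucleosides and peptides, of which 3 rose and 3 fell (median -0.29). Slco2a1, an organic anion carrier that takes up prostaglandins, fell by 1.62 (SE 0.22) at an adjusted p of 0.00406 in edgeR. Its relative Slco4a1 fell by 0.85 (SE 0.202) at an adjusted p of 0.0272. Slc15a3, a lysosomal peptide and histidine carrier, averaged 160 ± 3.92 CPM in the controls (SD, n = 2) and 285 ± 9.22 CPM with verapamil (SD, n = 3), a log2 fold change of 0.83 (SE 0.0918, adjusted p = 0.00208). Named after their values were seen, Slco2b1 fell by 0.79 (SE 0.128), and the nucleoside carrier Slc29a1 and the lysosomal Slc15a4 rose by 0.75 (SE 0.103) and 0.34 (SE 0.0936). The calls of Slco4a1 and Slc15a4 were lost without verapamil replicate 2 or without verapamil replicate 3, and that of Slc15a4 also without verapamil replicate 1, under upper quartile factors (adjusted p = 0.136 in edgeR) and with no filter (adjusted p = 0.057).

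Enzymes that oxidise or conjugate foreign compounds make cargo for the Abcc pumps. Of 27 tested, 9 fell and 2 rose, with a median of -0.44, where 15.4% of all tested genes fell and 9.99% rose. The median log2 ratio of control replicate 3 to control replicate 1 was -0.19 over this list and 0.08 over all tested genes. Sult1a1, a phenol sulfotransferase, fell by 2.16 (SE 0.168) at an adjusted p of 0.00076 in edgeR. Gstp1, a glutathione transferase, fell by 1.30 (SE 0.228) at an adjusted p of 0.01. Cyp1b1, a cytochrome enzyme that oxidises aromatic compounds, fell by 1.26 (SE 0.173) at an adjusted p of 0.00417. With each library's length trend removed the log2 fold changes were -1.96 for Sult1a1, -0.93 for Gstp1 and -1.40 for Cyp1b1. Gstp1 has close copies in the mouse genome, and how reads were divided among them was not tested. The others that fell, named after their values were seen, were Nqo1 (by 1.21), Gstt1 (1.19), Ephx1 (0.87), Gstt3 (0.86), Gss (0.71) and Gclm (0.48). The calls of Gss and Gclm were lost without any 1 of the verapamil libraries. Those of Gstt1 and Gstt3 were lost without verapamil replicate 1, and that of Gstt3 also without verapamil replicate 3. Both genes that rose, Gstm1 by 0.74 (SE 0.142) and Gsto1 by 0.37 (SE 0.108), are glutathione transferases, named after their values were seen, and both calls were lost without any 1 of the verapamil libraries. Gsto1 also lost its call under upper quartile factors (adjusted p = 0.185 in edgeR), with no filter (adjusted p = 0.0547) and with the stricter filter (adjusted p = 0.0605).

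Makers and breakers of the pumps' natural cargo gave 1 gene that rose and 5 that fell of 24 tested (median -0.18). Ltc4s, which makes leukotriene C4, the cargo of Abcc1, averaged 13.4 ± 5.22 CPM in the controls (SD, n = 2) and 4.41 ± 0.284 CPM with verapamil (SD, n = 3). It fell, with a log2 fold change of -1.60 (SE 0.252) and an adjusted p of 0.0069 in edgeR. The cyclooxygenase genes Ptgs2 and Ptgs1, at the head of prostaglandin synthesis, fell by 1.60 (SE 0.204) and 1.24 (SE 0.117), at adjusted p-values of 0.00335 and 0.00128. Named after their values were seen, Alox5ap, the partner of 5-lipoxygenase, fell by 0.77 (SE 0.15), the cyclic AMP phosphodiesterase Pde4b fell by 0.79 (SE 0.181), and the haem exporter Flvcr1 rose by 1.02 (SE 0.1). The calls of Alox5ap and Pde4b were lost without any 1 of the verapamil libraries. With the length trend removed the log2 fold changes were -1.20 for Ltc4s, -1.71 for Ptgs2, -1.25 for Ptgs1, -0.52 for Alox5ap, -0.89 for Pde4b and 0.93 for Flvcr1.

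Partners that hold transporters in the membrane gave 3 genes that rose and 2 that fell of 11 tested (median 0.34). Cav1, the coat protein of caveolae, fell by 1.89 (SE 0.13) at an adjusted p of 0.000584 in edgeR. The scaffold gene Slc9a3r2 fell by 1.35 (SE 0.253) at an adjusted p of 0.0124. Pim1, a kinase known to phosphorylate ABC transporters, averaged 31.5 ± 4.05 CPM in the controls (SD, n = 2) and 83.2 ± 4.96 CPM with verapamil (SD, n = 3), a log2 fold change of 1.40 (SE 0.127, adjusted p = 0.00118). Slc9a3r1 rose by 0.76 (SE 0.0969) and Flot2 by 0.34 (SE 0.0993), both named after their values were seen. The calls of Flot2, without any 1 of the verapamil libraries, and of Slc9a3r2, without verapamil replicate 1 or without verapamil replicate 2, were lost. Flot2 also lost its call under upper quartile factors (adjusted p = 0.141 in edgeR), with no filter (adjusted p = 0.064) and with the stricter filter (adjusted p = 0.056).

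Markers of cell types the cultures could hold moved with treatment as well, where 9.99% of all tested genes rose and 15.4% fell. Of 10 osteoclast markers 8 fell and 1 rose, and their summed level was 7022 to 7690 CPM in the controls and 3286 to 3434 CPM with verapamil. Of 8 macrophage markers 5 fell and 1 rose (5530 to 5629 against 4241 to 4289 CPM), and of 9 tested stromal markers 7 fell and 0 rose (979 to 1168 against 421 to 439 CPM). Osteoclast markers were thus abundant in both groups, as the label says, and their sum was lower in each treated library. The osteoclast marker that rose was Atp6v0d2 (log2 fold change 0.98, SE 0.0996, adjusted p = 0.00159 in edgeR), and Itgb3 was not called. The endothelial list summed to 77.1 to 108 CPM in the controls and 308 to 365 CPM with verapamil, a level made mainly by Vwf, which rose, as did Kdr, while Pecam1 and Emcn fell and Cdh5, Tek, Tie1 and Cldn5 were below the filter. Stem cell markers summed to 35.6 to 41.2 against 28.1 to 30.8 CPM, with 1 of 3 tested higher and 1 lower. Mast cell and lymphocyte markers were at or below 1.66 and 0.734 CPM in sum in every library. No listed marker with a row was at 0 in all libraries. The part of these markers in the transporter values was not tested.

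Genes with the pattern most like a transporter were ranked by Pearson's r of log2 CPM over the 5 libraries, among tested genes with at least the median expression. For Abcb1a these were Gm14326, Esco1 and Rbm15b, and 1938 of 6310 genes had an r above 0.9 with it. For Abcb1b they were Lipo3, Ddx3y and Rprd2, and 1929 of 6309 genes passed 0.9. For Abcc1, the transporter with the highest CPM, they were Rp2, Cdh11 and Fchsd2, and 190 of 6309 genes passed 0.9. All of the named genes had an r over 0.99, and the points share the difference between the control libraries, so the likeness describes these 5 libraries alone.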

How the data were processed

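The source was a table of mouse genes with estimated counts per library, deposited by the authors with decimals. The values sum to different totals per library and look unnormalized. The submitters' processing notes name the builds GRCm38 and mm10. Which aligner, counter and annotation made the table, and whether strand was used, is not given in the sources used here. Per the labels' protocols, 1.3 ug of Trizol-extracted RNA went into each library, built with a SMARTER mRNA kit. Titles give day 5, while the protocol changes the medium every 2 days to day 7.

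The estimated counts were rounded. R 4.3.3 with edgeR 4.0.16 applied TMM scaling and filterByExpr (at least 10 counts, total at least 15). A quasi-likelihood model with group as its sole term was then fitted over 12619 genes, with 3 residual and 3.28 prior degrees of freedom and 15.3% as the biological coefficient of variation. Benjamini-Hochberg adjustment ran over all tested genes, and an adjusted p under 0.05 was a call. The SE follows from the test, as the size of the log2 fold change over the root of F. Totals of 20202340 to 21494523 estimated counts set the precision of low genes such as Abcb1a. Alternatives were upper quartile and relative log expression factors, DESeq2 1.42.0, no filter, a stricter filter (CPM of at least 1 in 2 libraries), a replicate block, removal of each library's trend with transcript length (lowess, span 0.3), and leaving out each library. Without 1 control, the lone control is assumed to vary like the other group. The test had been planned for 3 against 3 libraries.

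The transporters and all gene lists were chosen with earlier results of these data known. Genes named were the 8 transporters, up to 3 rises and 3 falls among other called ABC genes, the 3 called genes of each list with the largest change and a mean of at least 1 CPM, and the 3 genes most like Abcb1a, Abcb1b and the most abundant transporter. Adam22, Crot, Rundc3b, the markers named and the genes said to be so were chosen after their values were seen. Positions and promoters come from RefSeq (GRCm38.p6) and transcripts from GENCODE M21, read with Python 3.11.15. Of the 8 transporters, 6 had a promoter entry.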

Additional observations from a re-analysis of the deposited data

How the results depend on the processing

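Leaving out a control gave more calls and leaving out a treated library fewer. A lone control has no spread of its own, so calls without 1 control carry little weight. Without any 1 library the genes called ranged from 1460 (verapamil replicate 3) to 7808 (control replicate 3), 440 to 3983 of them higher and 1009 to 3825 lower, against 3200 with all 5. Among the transporters 1 to 5 were called (0 to 4 higher, 1 to 3 lower). Among other ABC genes 1 to 12 were called (0 to 9 higher, 1 to 4 lower), and among the listed genes 20 to 60 (5 to 25 higher, 15 to 35 lower). Over the same refits the log2 fold change ranged from 0.82 to 1.94 for Abcb1a, 0.42 to 1.13 for Abcb1b, -1.38 to -0.86 for Abcb4, -0.61 to 0.031 for Abcc1, -0.39 to -0.10 for Abcc3, -0.24 to 0.40 for Abcc4, 0.073 to 0.57 for Abcc5 and -0.28 to -0.069 for Abcg2. The highest values of Abcc4 (0.40) and Abcc5 (0.57) came without control replicate 3, and neither gene was called in a fit with both controls.

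With the length trend removed 4933 of 12619 tested genes were called, 2265 of them higher (45.9%, against 39.4% with TMM alone). The transporters called were then 5, with 2 higher and 3 lower, the other ABC genes 9, with 5 higher and 4 lower, and the listed genes called higher 19. In that fit Abcb1b was at 0.63, Abcc1 at -0.51, Abcc3 at -0.40 and Abcc4 at -0.12. Upper quartile factors moved the all-gene median to -0.13 on the log2 scale and the share called higher to 28.2%. They gave Abcc3 -0.37 and Abcc4 -0.073, 2 transporters called lower and 1 other ABC gene called higher. Of all 12619 tested genes they called 2331 lower and 915 higher. Abcb1b passed with relative log expression factors (0.74), with DESeq2 (0.74) and in sum with Abcb1a (0.76), so 2 transporters were called higher with each of the first 2. DESeq2 called 3518 genes, 45.5% of them higher, and 7 other ABC genes, 5 of them higher. The cause of these differences was not tested.

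With the replicate number as a block, 3317 genes and 3 transporters were called, 2 of them higher, with Abcb1b at 0.76 (adjusted p = 0.00298 in edgeR). The labels do not say that equal numbers mark a shared animal or day, and deviations from the group means do not single out equal numbers. Their Pearson correlation over genes was 0.289 for replicate 1 of both groups, and just as high for control replicate 3 with verapamil replicate 2. It was 0.0224 for replicate 3 of both groups. The deviations of 2 controls mirror each other, so each verapamil library gave the same size with both controls, at opposite signs. Abcg1, Rxra, Slc15a4, Gclm, Gsto1 and Flot2 lost their calls under the block. Among the transporters depth limits Abcb1a most, at 23.1 to 86.8 estimated counts per library.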
